A study of Homo sapiens with 6 samples.

Results

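The genes of the endoplasmic reticulum (ER) chaperones and the unfolded protein response were followed through 6 K562 transcriptomes. The 36 members were taken by gene symbol from a list with 8 roles, ranging from the stress sensors to the translocon, and matched to the NCBI Gene identifiers of the count tables. All 36 were found among 25702 identifiers, and all 36 passed the filter on low counts, which left 15431 genes tested. K562 is an established human erythroleukemia line derived from chronic myeloid leukemia. All groups shared the cell line and transfection with a pCMV-HA plasmid, which was empty (EV) or drove an HA-tagged insert from the cytomegalovirus promoter. The insert was MXD3, a MYC-antagonizing transcription factor, or the leukemia fusion STIM1::MXD3, and the study asked how each changed the transcriptome. Each group had 2 libraries, described by the study as independent transfections, and the libraries were numbered 1 and 2 in every group. The groups model short-term overexpression in bulk cells of 1 line, and fewer expressing cells cannot be told apart from less RNA per cell.

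The ER lumen folds secreted and membrane proteins with the help of chaperones, glycan-binding lectins, disulfide isomerases and prolyl isomerases. When unfolded proteins build up, 3 sensors in the ER membrane, IRE1 (ERN1), PERK (EIF2AK3) and ATF6, start the unfolded protein response. IRE1 splices the XBP1 mRNA, ATF6 is cut to release a transcription factor, and both turn on chaperone and degradation genes through ER stress elements in their promoters. PERK phosphorylates eIF2α, which slows translation and induces ATF4, DDIT3 and PPP1R15A.

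Total counts were between 53048343 and 63835779 per library, and the 36 members held 1.22% to 1.39% of them. MXD3 reads followed the labels, at 9.33 and 11.7 TMM-scaled counts-per-million (CPM) with EV, 2523 and 2162 with MXD3 and 1975 and 1849 with STIM1::MXD3. They set EV apart but not MXD3 from the fusion. STIM1 was at 471 and 453 CPM with STIM1::MXD3 and at 159 to 205 with EV or MXD3. The 11 fixed K562 markers were all present, with summed levels of 7260 to 10066 CPM. Of the 18 markers of other blood, epithelial and fibroblast cells, MS4A1 and JCHAIN were at 0 in every library, and EPCAM (77.9 to 101 CPM), SPI1 (31.4 to 60.7 CPM), LYZ (21.2 to 27.0 CPM) and CD3D (13.4 to 19.8 CPM) had the highest levels.

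The sequences below show the element through which ATF6 and XBP1 act, because 10 members hold it, HSPA5, HSP90B1 and CALR among them. Promoters were taken from RefSeq (GRCh38.p14) as 250 bases before to 50 bases after the gene start, and were given for 33 of the 36 members. The ER stress element (ERSE), searched as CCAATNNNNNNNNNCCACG on both strands, was in 7 of the 33 promoters (21.2%) and in 0.131% of the 11468 promoters of genes tested. ERSE-II, ATTGGNCCACG, was in 3 further members (9.09%) and in 0.0959% of the tested genes' promoters. Among the 98 promoters of 116 other ER genes, neither element was found. Each match is shown in the 5′ to 3′ direction of the element, with its fixed letters in capitals and the spacer in lower case.
HSPA5: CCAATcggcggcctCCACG
HSP90B1, distal: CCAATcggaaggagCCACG
HSP90B1, proximal: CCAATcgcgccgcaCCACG
CALR: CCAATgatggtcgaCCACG
CANX: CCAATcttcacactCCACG
XBP1: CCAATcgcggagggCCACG
ERO1B: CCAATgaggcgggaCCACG
CRELD2: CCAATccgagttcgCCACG
HYOU1, distal and proximal (ERSE-II): ATTGGaCCACG
HERPUD1 (ERSE-II): ATTGGgCCACG
SDF2L1 (ERSE-II): ATTGGtCCACG

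HSPA5 encodes BiP, the HSP70 of the ER, and its ERSE lies 66 to 48 bases before the RefSeq start, at chr9:128003670-128003688 on GRCh37. The site is outside every gene of the GENCODE annotation on that build. The bases from chr9:128003662-128003872, minus strand, all before the annotated gene, are shown to place it, with the fixed letters of the element in capitals.
HSPA5 promoter: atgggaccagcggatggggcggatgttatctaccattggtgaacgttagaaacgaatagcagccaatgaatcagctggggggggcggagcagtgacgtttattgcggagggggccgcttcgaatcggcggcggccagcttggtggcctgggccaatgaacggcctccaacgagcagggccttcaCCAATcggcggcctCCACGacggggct
On the same build the sites of CALR (chr19:13049198-13049216), XBP1 (chr22:29196591-29196609), ERO1B (chr1:236445483-236445501), HYOU1 (chr11:118928091-118928101 and chr11:118927985-118927995), HERPUD1 (chr16:56965937-56965947) and SDF2L1 (chr22:21996403-21996413) were also outside annotated genes. Those of HSP90B1 (chr12:104323994-104324012 and chr12:104324099-104324117) and CANX (chr5:179125779-179125797) overlapped exons of longer transcripts of the same gene, and that of CRELD2 (chr22:50312202-50312220) was intronic to one. The core of the unfolded protein response element, TGACGTGG, was in 1 of 33 promoters (HYOU1, overlapping its distal ERSE-II) and in 0.959% of tested genes' promoters. The E-box CACGTG, the site bound by MYC and by MXD family proteins with MAX, was in 4 of 33 (12.1%; HSP90B1, HERPUD1, DNAJB9 with 2 sites, and SSR1) and in 9.96% of tested genes' promoters. CCACG alone, the end of both ER stress elements, was in 23 of 33 (69.7%) and in 49.1% of tested genes' promoters. A letter match is a description of the window and not evidence of binding.

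Per kilobase of exon, the members spanned a wide range with EV. CALR, a calcium-binding lectin chaperone, was the highest at 731 CPM per kilobase, followed by HSPA5 at 613, HSP90B1 (GRP94, the HSP90 of the ER) at 542, SDF2L1 at 391, the membrane lectin CANX at 385 and the disulfide isomerase P4HB at 342. At the low end were the sensors EIF2AK3 (5.73) and ERN1 (4.75), the dislocation channel proteins DERL2 (3.41) and DERL3 (2.30), and WFS1, an ER membrane protein mutated in Wolfram syndrome, at 0.106. WFS1 was measured on 19 to 76 counts per library, so that its values carry a large counting error.

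With MXD3, HSPA5, HSP90B1, CALR and CANX were lower in both libraries than in either EV library, while DERL3 and the scarcely expressed WFS1 were higher. For SDF2L1, HYOU1, DNAJB11, DNAJC3, PDIA3 and PDIA4 the MXD3 and EV libraries overlapped. HSPA5 was at 2559 and 2246 CPM with EV, 1953 and 1618 with MXD3 and 2421 and 1667 with STIM1::MXD3. Both MXD3 libraries were below both EV libraries, fusion replicate 1 lay between the EV libraries, and fusion replicate 2 lay between the MXD3 libraries. The difference with MXD3 was -0.43 ± 0.20 (log2 fold change ± SE, n = 2 against 2), a level 25.7% lower, with a 95% interval of -0.91 to 0.051 and an adjusted p of 0.999 in edgeR without a replicate term. With the replicate number as a block it was -0.43 ± 0.089, adjusted p = 0.0526 in edgeR, just outside the threshold of 0.05, and adjusted p = 0.00269 in DESeq2. Among the markers of other cells, the sum over the 4 of monocytes and macrophages was also lower with MXD3. It was at least 79.9 CPM with EV, at most 71.5 with MXD3 and 67.8 to 84.2 with STIM1::MXD3. This came from SPI1 (60.7 and 52.7 CPM with EV, 48.6 and 31.4 with MXD3, a difference of -0.50 ± 0.25, edgeR adjusted p = 0.999, and 0.0526 with the block) and LYZ (-0.26 ± 0.14, 0.999 and 0.336), each lower in both MXD3 libraries than in both EV libraries. The defining markers CD14 (0.0991 to 0.356 CPM) and CSF1R (0.0393 to 0.159 CPM) were near 0 in all libraries. CD14 went the other way, at 0.157 and 0.0991 CPM with EV and 0.342 and 0.356 with MXD3, and CSF1R was not lower with MXD3.

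**Figure D1:**
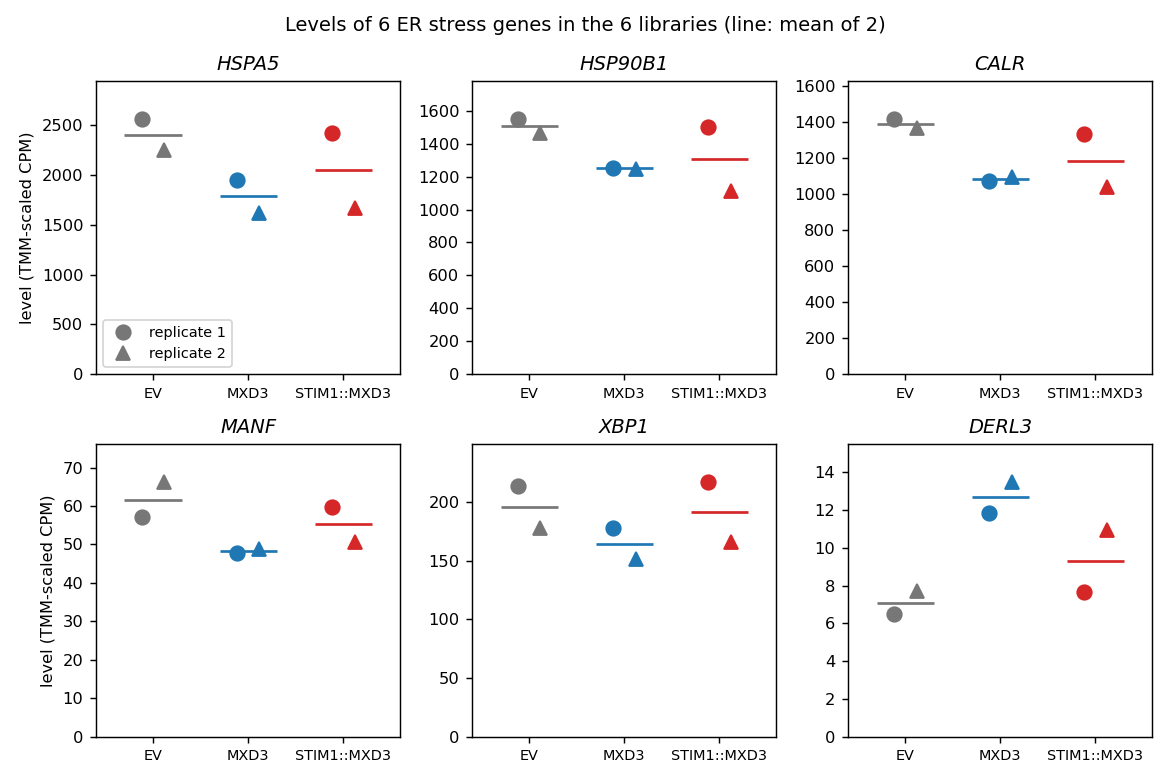
Levels of 6 members in TMM-scaled CPM (linear axes from 0) for EV, MXD3 and STIM1::MXD3; circles are replicate 1, triangles replicate 2 and lines the mean of 2 libraries. HSPA5, HSP90B1, CALR, MANF and XBP1 were lower in both MXD3 libraries than in both EV libraries and DERL3 was higher, whereas replicate 1 of STIM1::MXD3 lay within or close to the EV values for all 6 genes. Replicate 2 of STIM1::MXD3 lay within or below the MXD3 values for HSPA5, HSP90B1, CALR and XBP1. For MANF and DERL3 it lay between those of EV and MXD3.

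The other genes of the HSP70 and HSP90 group had smaller differences with MXD3, none of which passed the threshold. HSP90B1 was at 1549 and 1467 CPM with EV, 1254 and 1248 with MXD3 and 1503 and 1113 with STIM1::MXD3. It differed with MXD3 by -0.27 ± 0.16 without and -0.27 ± 0.10 with the block (edgeR adjusted p = 0.999 and 0.229). MANF, a secreted cofactor that binds BiP, was at 57.0 and 66.3 CPM with EV, 47.7 and 48.9 with MXD3 and 59.8 and 50.6 with STIM1::MXD3. The MXD3 libraries were nearly equal and below both EV libraries, a difference of -0.35 ± 0.14 with an unadjusted p of 0.0460 in edgeR, an adjusted p of 0.999, and of 0.162 with the block. Among the J-domain cochaperones of BiP, DNAJB9 was at 66.2 and 65.3 CPM with EV, 64.2 and 57.8 with MXD3 and 76.7 and 58.5 with STIM1::MXD3. Its difference with MXD3 was small, -0.11 ± 0.16, with a 95% interval of -0.49 to 0.27 and an edgeR adjusted p of 0.999. DNAJB11 and DNAJC3 differed by -0.11 and -0.016, HYOU1, a nucleotide exchange factor of BiP, by -0.068, and SDF2L1, a partner of DNAJB11, by -0.16. All 8 fitted differences of this group were below 0 (7 of 8 when scaled by library totals alone, with DNAJC3 above). In both replicate pairs 6 were below 0, with DNAJC3 and SDF2L1 above 0 in pair 1. Of the 8, 4 had both MXD3 libraries below both EV libraries, where 14.8% of all genes tested did. None passed the edgeR threshold. Summed over the 8 genes, the level was 5376 and 5196 CPM with EV, 4470 and 4163 with MXD3, and 5202 and 4142 with STIM1::MXD3.

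Of the 2 lectin chaperones, CALR was at 1414 and 1364 CPM with EV, 1069 and 1094 with MXD3 and 1332 and 1038 with STIM1::MXD3. Both MXD3 libraries and both fusion libraries were below both EV libraries. With MXD3 the difference was -0.36 ± 0.15, a level 22.1% lower, with an unadjusted p of 0.0455 and an adjusted p of 0.999 in edgeR, which became 0.128 with the block and 0.0298 in DESeq2 with the block. CANX was at 1874 and 1906 CPM with EV, 1757 and 1749 with MXD3 and 1978 and 1775 with STIM1::MXD3, a difference of -0.11 ± 0.12 with separate groups. Its distance between groups was small beside that of CALR.

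Among the 7 genes of disulfide formation, differences with MXD3 ran from -0.16 to 0.073 and none passed the threshold. PDIA6 (-0.16), PDIA4 (-0.13), PDIA3 (-0.12) and P4HB (-0.091), which form and reshuffle disulfide bonds, and ERO1B (-0.13), one of the oxidases that recharge them, were below 0, while ERO1A, the other oxidase, and the isomerase TXNDC5 were above 0 (0.073 and 0.059). The prolyl isomerases PPIB and FKBP2 differed by -0.14 and 0.012, and the translocon genes SEC61B and SSR1 by -0.05 and 0.038. For these 4 genes the libraries of the groups overlapped. CRELD2, a secreted protein induced by ER stress, differed by -0.14 with separate groups, and CALU, a calcium-binding protein, by -0.024.

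The degradation genes, which recognize and export misfolded proteins to the proteasome, had fitted differences on both sides of 0 with MXD3, and none passed the threshold without the block. DERL3 was at 6.50 and 7.71 CPM with EV, 11.9 and 13.5 with MXD3 and 7.68 and 11.0 with STIM1::MXD3. Both MXD3 libraries were above the other 4 libraries. The difference with MXD3 was 0.83 ± 0.23 (edgeR unadjusted p = 0.00890, adjusted p = 0.999), and with the block 0.84 ± 0.16, adjusted p = 0.0474, so that DERL3 was the 1 member to pass the threshold in edgeR with the block. In DESeq2 with the block its adjusted p was 0.00228, but in edgeR with the block it was 0.0530 with relative log expression scaling and 0.0747 with library totals alone. DERL3 lies at chr22:24176690-24181315 on GRCh37, minus strand, and 88.8% of the exons of its canonical transcript overlap an exon of SMARCB1 on the other strand. SMARCB1, a chromatin remodeling subunit, was at 94.4 and 79.2 CPM with EV and 76.6 and 73.8 with MXD3, a difference of -0.21 ± 0.15, opposite in sign to that of DERL3. Since the use of strand in counting is not given, reads of the genes cannot be told apart in the overlap.

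The remaining degradation genes showed smaller differences with MXD3. HERPUD1, a stress-induced membrane protein of the dislocation complex, was at 81.5 and 94.8 CPM with EV, 81.2 and 91.0 with MXD3 and 79.0 and 102 with STIM1::MXD3. It differed by -0.035 ± 0.16 (95% interval -0.42 to 0.36, edgeR adjusted p = 0.999), well inside the spread between replicates. EDEM1, a mannosidase-like protein that marks glycoproteins for degradation, was at 75.6 and 87.8 CPM with EV, 69.6 and 90.3 with MXD3 and 64.6 and 101 with STIM1::MXD3, a difference of -0.032 ± 0.24 (95% interval -0.59 to 0.53, edgeR adjusted p = 0.999). The ubiquitin ligase SYVN1 and DERL2 differed by -0.21 and -0.22, and SEL1L, DERL1 and EDEM2 by 0.031, 0.014 and 0.048. Of the 8 genes, 4 were above and 4 below 0, or 6 and 2 when scaled by library totals alone.

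Among the sensors, XBP1 mRNA was at 213 and 178 CPM with EV, 177 and 152 with MXD3 and 217 and 166 with STIM1::MXD3. The MXD3 libraries were below both EV libraries, the closest pair by under 1 CPM, with a difference of -0.25 ± 0.18 (95% interval -0.67 to 0.17, edgeR adjusted p = 0.999, and 0.187 with the block). It was -0.11 without EV replicate 1, -0.15 without MXD3 replicate 2 and -0.37 without EV replicate 2. Counts per gene do not separate spliced from unspliced XBP1. ERN1, EIF2AK3 and ATF6 differed by -0.17, -0.016 and -0.018, with overlapping groups. WFS1 was at 0.373 and 0.396 CPM with EV, 1.18 and 0.926 with MXD3 and 0.821 and 0.700 with STIM1::MXD3. It was the member with the highest fold, 1.45 ± 0.43, with an unadjusted p of 0.0118 and an adjusted p of 0.999 in edgeR.

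**Figure D2:**
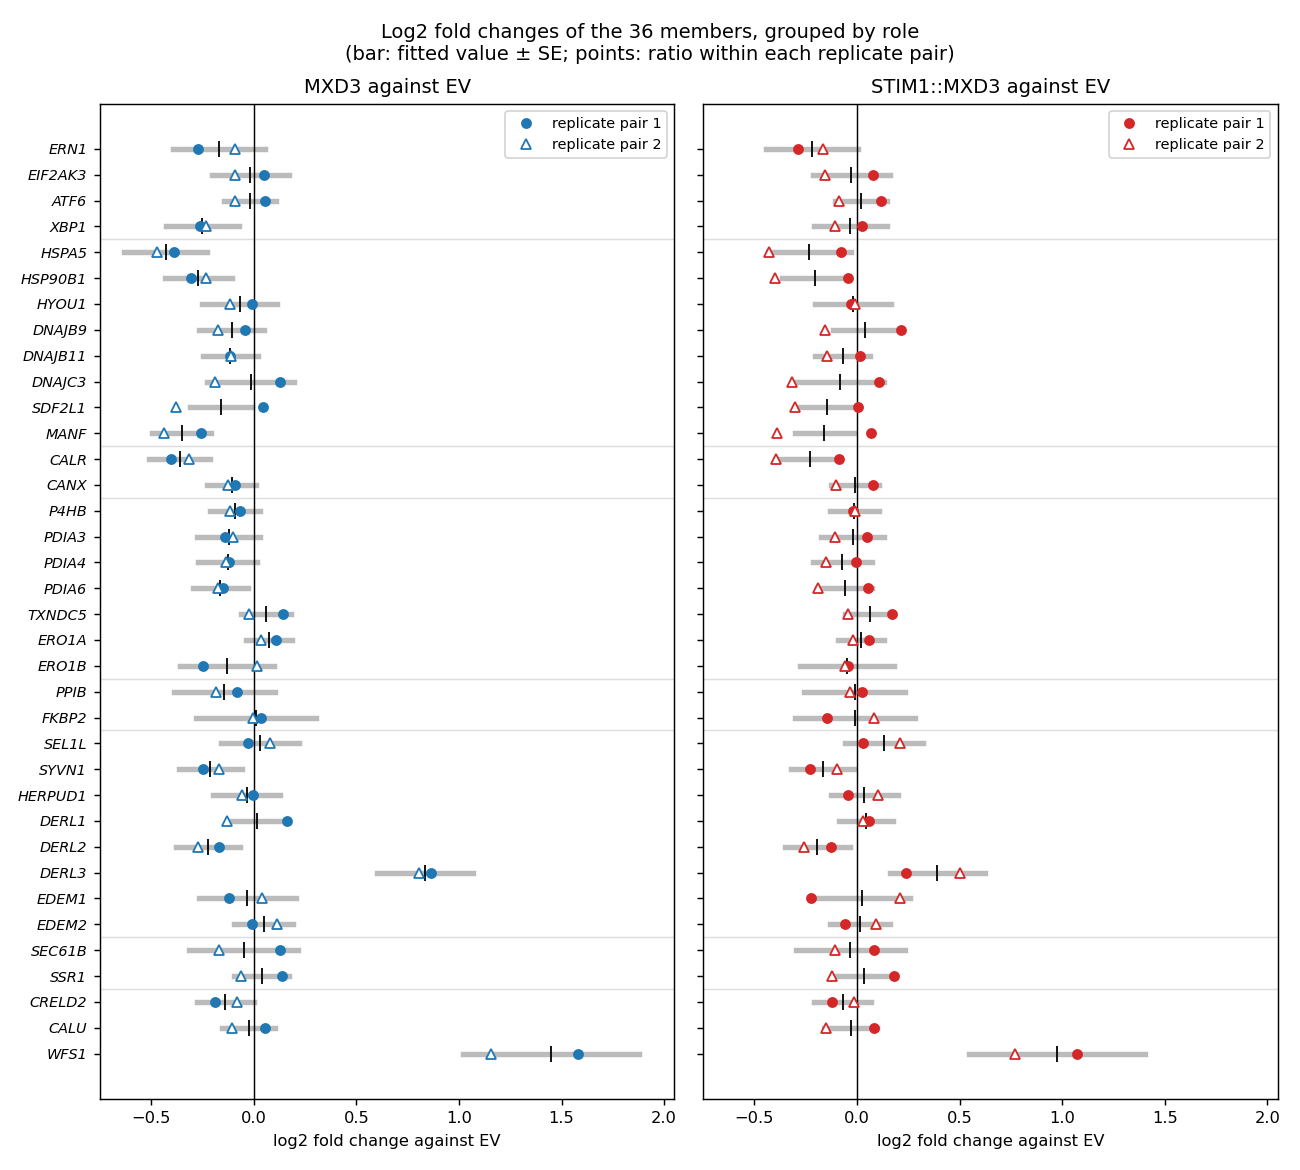
Log2 fold changes against EV of the 36 members for MXD3 (left) and STIM1::MXD3 (right), ordered and separated by role; gray bars are the fitted value ± SE from edgeR without the block, filled circles the ratio within replicate pair 1 and open triangles that within pair 2. With MXD3, 27 members lay below 0 and DERL3 and WFS1 stood apart on the right, and with the fusion the 2 pairs often lay on opposite sides of 0.

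Counted over the 36 members, 0 passed an adjusted p of 0.05 with MXD3 in edgeR without the block, where 0.00648% of all genes tested did, and 3 did in DESeq2 with the block (DERL3 higher, HSPA5 and CALR lower), where 1.57% of all genes did. With the block in edgeR 1 member (DERL3) was called against 0.292% of all genes. At an unadjusted p under 0.05, 4 members differed without the block (DERL3 and WFS1 higher, CALR and MANF lower; 1.86% of all genes) and 8 with it (2 higher and 6 lower; 13.9% of all genes), the 6 lower ones being HSPA5, CALR, MANF, XBP1, HSP90B1 and SYVN1. Both MXD3 libraries were below both EV libraries for 11 members, against 14.8% of all genes, and above them for 3 (DERL3, WFS1 and ERO1A), against 16.2% of all genes. The median difference of the members was -0.099, with 9 above and 27 below 0, and that of all genes tested was 0.0011. Scaled by library totals alone, 15 members were above and 21 below 0 and the medians became -0.058 and 0.043, a shift shared by all genes. The median was -0.055 in replicate pair 1 and -0.11 in pair 2.

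With the fusion STIM1::MXD3, no member passed the threshold against EV in any of the 3 fits, and the 2 fusion libraries disagreed. HSPA5 was -0.23 ± 0.20 against EV (95% interval -0.71 to 0.25, edgeR adjusted p = 1.00), with -0.080 in pair 1 and -0.43 in pair 2. Without fusion replicate 2 it was 0.0044, and without fusion replicate 1 it was -0.53. HSP90B1 (-0.21 ± 0.16), CALR (-0.23 ± 0.15) and MANF (-0.16 ± 0.14) were also close to EV in replicate 1 and close to the MXD3 libraries in replicate 2. Without fusion replicate 2 they were -0.012, -0.068 and -0.051. XBP1 differed by -0.033 ± 0.18 (95% interval -0.45 to 0.39), DNAJB9 by 0.04 ± 0.16 (-0.34 to 0.42), HERPUD1 by 0.036 ± 0.16 (-0.35 to 0.43) and EDEM1 by 0.023 ± 0.24 (-0.54 to 0.58), each with an edgeR adjusted p of 1.00. DERL3 (0.39 ± 0.23) and WFS1 (0.98 ± 0.43) were above 0, with edgeR unadjusted p of 0.136 and 0.0573 and adjusted p of 1.00 for both. DERL3 was 0.10 without fusion replicate 2 and 0.62 without fusion replicate 1.

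Of the 36 members, 0 were called against EV with the fusion in edgeR without the block (0.00648% of all genes tested) and 0 with it (0.0194%). At an unadjusted p under 0.05 there were 0 without the block (0.953% of all genes) and 5 with it (8.5% of all genes), namely HSPA5, CALR, HSP90B1 and ERN1 lower and DERL3 higher. DESeq2 with the block called 0 members. WFS1 had both fusion libraries above both EV libraries (12% of all genes were so placed), and CALR and DERL2 had both below (10% of all genes). The members' median was -0.025, with 12 above and 24 below 0, beside 0.0096 for all genes tested. It was 0.025 in pair 1 and -0.10 in pair 2. The comparisons with MXD3 and with the fusion share the EV libraries, so that their values are given side by side and not as independent of each other.

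Set directly against MXD3, the fusion libraries showed no called member, in edgeR without the block (0% of all genes tested) or with it (0.00648%). No member had an unadjusted p under 0.05 without the block, and DERL3 (-0.46 ± 0.16) and XBP1 (0.21 ± 0.082) did with it (6.49% of all genes), with adjusted p of 0.678 and 0.703 in edgeR. Both fusion libraries were above both MXD3 libraries for MANF, CANX, DERL2 and CRELD2 (10.9% of all genes were so placed) and below them for DERL3, WFS1 and ERO1A (10.2% of all genes). HSPA5 differed by 0.20 ± 0.20 (95% interval -0.28 to 0.67), MANF by 0.19 ± 0.14, XBP1 by 0.22 ± 0.18 (-0.21 to 0.64), WFS1 by -0.47 ± 0.41, DNAJB9 by 0.15 ± 0.16 (-0.23 to 0.53), HERPUD1 by 0.071 ± 0.16 (-0.32 to 0.46) and EDEM1 by 0.055 ± 0.24 (-0.50 to 0.61), all with an edgeR adjusted p of 1.00. Without fusion replicate 1, XBP1 was 0.0077, MANF 0.066 and DERL3 -0.21. The intervals are wide enough to hold no difference as well as the whole difference between MXD3 and EV for HSPA5. The median of the members was 0.046, with 26 above and 10 below 0 (22 and 14 when scaled by library totals alone), beside 0.0083 for all genes. Without fusion replicate 1 the median was -0.050, and without fusion replicate 2 it was 0.088.

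**Figure D3:**
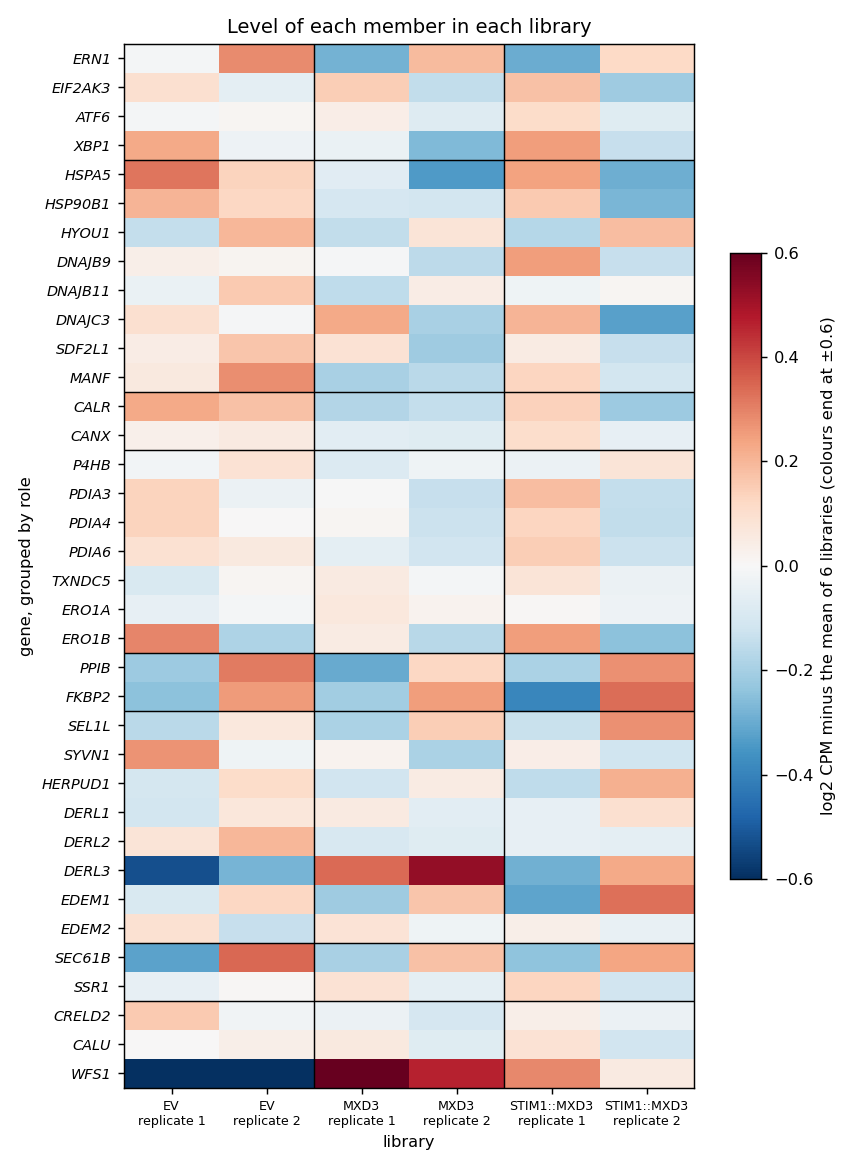
Level of each member in each of the 6 libraries as log2 CPM minus the mean of the gene over the libraries (red higher, blue lower, colors end at ±0.6, which WFS1 exceeds). The chaperone rows HSPA5 to CANX are mostly blue in both MXD3 libraries and in STIM1::MXD3 replicate 2, and PPIB, FKBP2, EDEM1 and SEC61B alternate with the replicate number in all 3 groups.

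More members were called by replicate number, over all 3 groups in the fit with the block, than by plasmid, with 2 libraries per group. These counts do not compare the sizes of the differences. In the edgeR fit with group and replicate number, 16 of 36 members differed between replicates 2 and 1 at an adjusted p under 0.05, where 29.2% of all genes tested did. In replicate 2, 8 members were higher (13.1% of all genes) and 8 were lower (16.1% of all genes), while scaling by library totals alone gave 10 higher and 4 lower. The labels give no batch, date or culture for these numbers. The median of the members was -0.097, with 14 above and 22 below 0, and that of all genes was 0.0062. The summed level of the K562 markers was also lower in replicate 2 in every group (8122 against 8970 CPM with EV, 8058 against 9553 with MXD3 and 7260 against 10066 with the fusion). HBE1 had the highest level in the sum (3548 to 4697 CPM). LMO2 went the other way in every group (51.8 and 66.4 CPM with EV, 44.8 and 56.9 with MXD3, 50.1 and 61.0 with the fusion), as did TAL1 with EV (227 and 236 CPM). Apart from these, each marker was lower in replicate 2 in every group. The part of these shifts in the members' differences was not tested.

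Among the 8 members that rose in replicate 2 were both prolyl isomerases. PPIB, a prolyl isomerase that acts on collagen and other secreted proteins, was at 98.6 and 142 CPM with EV, 93.0 and 125 with MXD3 and 100.3 and 138 with STIM1::MXD3, a difference of 0.47 ± 0.068 (edgeR adjusted p = 0.000140). SEC61B, a small subunit of the translocon, was at 64.7 and 103 CPM with EV, 70.6 and 91.3 with MXD3 and 68.4 and 95.4 with STIM1::MXD3, a difference of 0.51 ± 0.077 (edgeR adjusted p = 0.000208). In all 3 groups replicate 2 was higher for both genes. FKBP2, the other prolyl isomerase, was at 32.1 and 45.3 CPM with EV, 32.9 and 45.2 with MXD3 and 29.0 and 48.0 with STIM1::MXD3 and differed by 0.56 ± 0.087 (edgeR adjusted p = 0.000240). EDEM1 rose by 0.41 ± 0.083 (edgeR adjusted p = 0.00169). The ligase adaptor SEL1L was at 142 and 166 CPM with EV, 139 and 175 with MXD3 and 145 and 192 with STIM1::MXD3, a rise of 0.32 ± 0.068 (edgeR adjusted p = 0.00221). ERN1 was at 33.7 and 41.3 CPM with EV, 27.9 and 38.7 with MXD3 and 27.6 and 36.9 with STIM1::MXD3 and rose by 0.40 ± 0.086 (edgeR adjusted p = 0.00280), with replicate 2 the higher library in each group. HYOU1 (0.31) and HERPUD1 (0.25) completed the 8 higher members.

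The 8 lower members of replicate 2 included HSPA5, XBP1 and PERK. HSPA5 fell by 0.33 ± 0.073 (edgeR adjusted p = 0.00295), with within-group differences of -0.19 in EV, -0.27 in MXD3 and -0.54 in the fusion, so that its replicate difference was of a size near that with MXD3. XBP1 (-0.29), EIF2AK3 (-0.28), ERO1B (-0.40), DNAJC3 (-0.35), SYVN1 (-0.22), PDIA3 (-0.21) and PDIA4 (-0.18) were also lower. By role, both prolyl isomerases rose, 3 of 8 degradation genes rose and 1 fell, 3 of 7 disulfide genes fell, and among the 4 sensor genes 1 rose and 2 fell. Across the 36 members, the replicate difference had a Pearson r of 0.24 with the GC content of the transcript and -0.26 with its log2 length, which describe these genes and not independent replicates. The Spearman rank correlations were 0.19 and -0.094. Over all genes tested, the Pearson values were 0.12 and -0.068. Without fusion replicate 1, fewer members were called, which was not set beside the share of all genes in that fit.

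**Figure D4:**
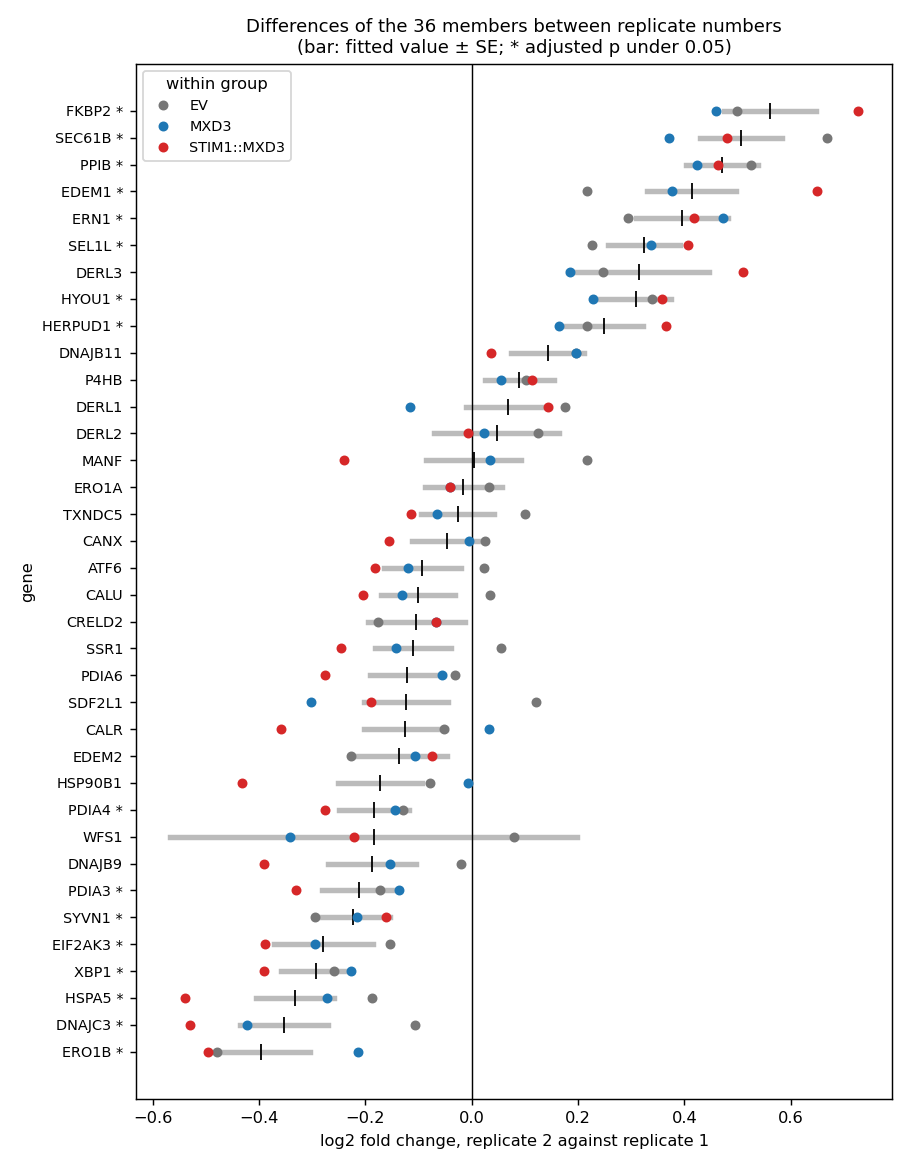
Log2 fold change of replicate 2 against replicate 1 for the 36 members, ordered by the fitted value; gray bars are the fitted value ± SE over all groups, points the difference within EV (gray), MXD3 (blue) and STIM1::MXD3 (red), and asterisks mark an adjusted p under 0.05. FKBP2, SEC61B and PPIB were higher in replicate 2 in every group, ERO1B, DNAJC3 and HSPA5 lower, and the red points of HSP90B1, CALR and HSPA5 were the lowest of the 3 groups.

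Members were then set apart by the promoter elements printed above. With MXD3, the 10 members with an ERSE or ERSE-II had fitted differences from -0.43 (HSPA5) to -0.035 (HERPUD1), with a median of -0.15, and all 10 were below 0. The 23 members with neither element had a median of -0.032, with 7 above and 16 below 0. Without MXD3 replicate 2 the medians were -0.14 and -0.12, so that the distance between them rested on that library. Without EV replicate 2 they were -0.26 and -0.011, and without MXD3 replicate 1 they were -0.24 and -0.023, with 8 of the 10 below 0 in either case, and without EV replicate 1 they were -0.18 and -0.077, with 9 of the 10 below 0. Scaled by library totals alone, 9 of the 10 were below 0 (HERPUD1 was above) and 11 of the 23. With the fusion, the medians were -0.060 and -0.014, with 9 of 10 and 14 of 23 below 0, and without fusion replicate 2 they were -0.028 and 0.032, with 6 of 10 and 11 of 23 below 0. Between replicates, they were -0.12 and -0.026, with 8 of 10 and 13 of 23 below 0. The groups also differed in level, with a median of 503 CPM for the 10 and 83.0 CPM for the 23, and no test was made of the split, which was drawn after the values were known. PDIA3, DERL1 and DERL3 had no promoter sequence and were left out.

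**Figure D5:**
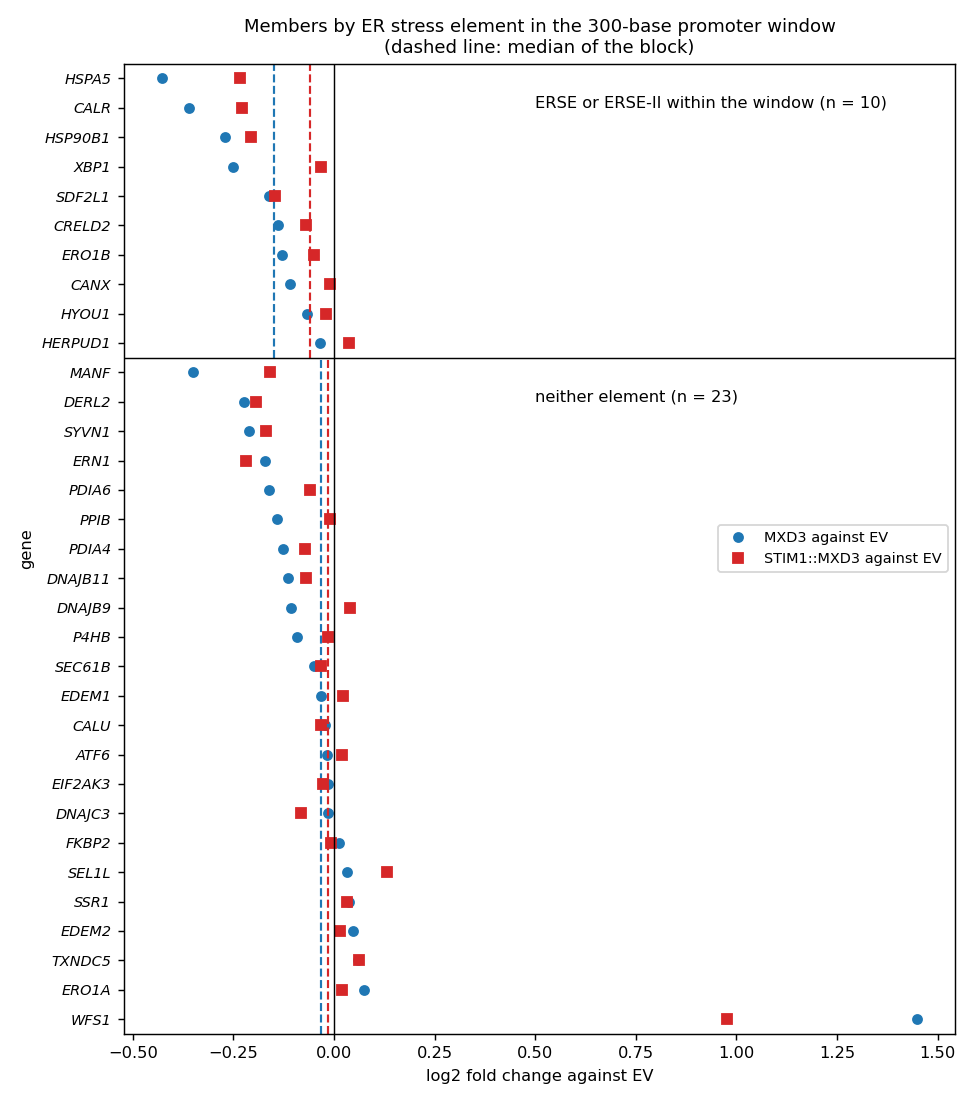
Log2 fold changes against EV (edgeR without the block) of 33 members for MXD3 (blue circles) and STIM1::MXD3 (red squares), split by an ERSE or ERSE-II in the promoter window; dashed lines are medians of each block. All 10 members with an element lay below 0 with MXD3, and MANF was the lowest of the 23 without one.

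Beyond the members, 116 other ER genes were read from the same fits, covering the translocon, glycosylation, disulfide formation, chaperones, degradation and the stress sensors with their transcription factors. In edgeR without the block, 0 of 116 were called with MXD3 or with the fusion (0.00648% of all genes tested in each). With the block 1 was called with MXD3, where 0.292% of all genes tested were. This was PPP1R15A (GADD34), which directs the dephosphorylation of eIF2α after PERK activation. It was at 559 and 486 CPM with EV, 380.3 and 291 with MXD3 and 431 and 262 with STIM1::MXD3. Both MXD3 libraries and both fusion libraries were below both EV libraries. The difference with MXD3 was -0.64 ± 0.25 without the block (edgeR adjusted p = 0.999) and -0.65 ± 0.10 with it (adjusted p = 0.0220), and with the fusion -0.59 ± 0.25 and -0.63 ± 0.10 (adjusted p = 1.00 and 0.0514). DESeq2 with the block called PPP1R15A in both comparisons and, with MXD3, also DDIT3 (CHOP, a transcription factor induced through PERK; -0.45 ± 0.12, adjusted p = 0.0244) and KDELR1 (the receptor that returns chaperones to the ER; -0.29 ± 0.090, adjusted p = 0.0498), which are named after their values were seen. In that fit 1.57% of all genes tested were called with MXD3 and 29 of 15431 with the fusion. DDIT3 was at 135 and 148 CPM with EV and 80.8 and 132 with MXD3, and in edgeR without the block its difference was -0.41 ± 0.24 (adjusted p = 0.999), -0.086 without MXD3 replicate 1 and -0.81 without MXD3 replicate 2, so that it rested on MXD3 replicate 1. KDELR1 was at 357 and 290 CPM with EV and 284 and 244 with MXD3, and its difference in the same fit was -0.29 ± 0.19 (adjusted p = 0.999), -0.13 without EV replicate 1 and -0.19 without MXD3 replicate 2. Without the block, PPP1R15A with the fusion was -0.28 without fusion replicate 2. ATF4, also induced through PERK, was at 511 and 513 CPM with EV, 417 and 526 with MXD3 and 476 and 580 with STIM1::MXD3. Its libraries overlapped in both comparisons with EV. The median of the 116 genes was -0.019 with MXD3, with 53 above and 63 below 0, and 0.036 with the fusion, with 79 above and 37 below 0. By replicate number, 35 of 116 were called (29.2% of all genes tested were), 21 higher and 14 lower in replicate 2, led by SEC61G (0.82), CNPY2 (0.72) and ERP44 (-0.57).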

How the data were processed

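RNA from 6 K562 cultures, 2 per plasmid, was sequenced from poly A libraries. The authors deposited unnormalized counts, in 1 table per library keyed by NCBI Gene identifier. The submitters' processing notes name HISAT2 2.2.1, featureCounts 2.0.1 and hg19, and the annotation and use of strand are not given in the sources used here. Among counts of 1 to 39, 59.8% to 67.3% were even, so both ends of 1 read pair may have been counted. Symbols were matched for 92.2% of identifiers, and unmatched ones (0.225% to 0.277% of counts) stayed in library sizes.

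Genes were filtered with filterByExpr, scaled by TMM and tested in edgeR 4.0.16 (R 4.3.3) by its two-sided quasi-likelihood test, with a coefficient per group over all 6 libraries and Benjamini-Hochberg adjustment over 15431 genes. Alternatives were the replicate number as a block, DESeq2 1.42.0, other scalings and filters, halved counts, and leaving out each library. Same-numbered libraries deviated together (r of 0.27, 0.36 and 0.45 over 15431 genes), and the numbers were therefore taken as pairs in the block. The labels state no pairing. With so few libraries such correlations can also arise without one, so the pairing is an assumption on which the blocked fits rest. The replicate comparison is the replicate coefficient of the blocked fit. Levels are TMM-scaled CPM, log2 ratios within pairs used a prior count of 2, and lengths and positions came from GENCODE transcripts on GRCh37. P-values measure the spread between these libraries. The steps were run on simulated data with planted changes larger than most differences of the members, so that run does not cover the recovery of small differences.

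The members and lists were chosen with earlier results of these data known. Named in full were members past the threshold with or without the block, those with the 4 lowest unadjusted p without it (6 in the replicate comparison), at most 3 other ER genes per comparison, and HSPA5, DNAJB9, HERPUD1, XBP1 and EDEM1.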

Additional observations from a re-analysis of the deposited data

How the results depend on the processing

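The counts of called members rest on the replicate block. With MXD3, 1 member was called with the block and 3 in DESeq2 with it, and of the other ER genes 1 with the block, 1 with the block and relative log expression scaling and 3 in DESeq2 with the block. With the fusion, DESeq2 with the block called 1 other ER gene. Over all genes, the calls with MXD3 rose from 1 to 45 with the block, 16 with the block and relative log expression scaling, 6 with the block and library totals, and 243 in DESeq2 with the block, and with the fusion from 1 to 3 with the block and 29 in DESeq2 with it. The block changed no other member's call. Alternatives without the block left 0 members called in each plasmid comparison.

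Scaled by library totals, the median of the members with MXD3 was -0.058 (-0.057 with the block), HERPUD1 was 0.0057 (0.012 with the block) and EDEM1 0.0099 (0.0017 with the block), and the median between fusion and MXD3 was 0.016 (0.012 with the block). EDEM1 with the fusion was -0.0058 with the block, -0.014 with the block and relative log expression scaling and -0.014 in DESeq2 with the block. Leaving out 1 library at a time, with the lone library assumed to vary like the other groups, the range with MXD3 was -0.12 to -0.049 for the median, -0.14 to 0.080 for HERPUD1 and -0.24 to 0.16 for EDEM1. With the fusion it was -0.53 to 0.0044 for HSPA5, -0.17 to 0.22 for DNAJB9, -0.17 to 0.21 for HERPUD1, -0.24 to 0.14 for XBP1 and -0.35 to 0.31 for EDEM1. Between fusion and MXD3 it was -0.050 to 0.088 for the median, -0.10 to 0.43 for HSPA5, -0.062 to 0.32 for DNAJB9, -0.13 to 0.24 for HERPUD1 and -0.32 to 0.34 for EDEM1. By replicate number, 12 to 16 members were called in the alternatives with all libraries and 11 to 16 without 1 library, and of the other ER genes 21 without the group term and 19 to 27 without 1 library. The causes were not tested. These counts by replicate number were not set beside the share of all genes called in the same alternatives. A change in the calls of these genes therefore cannot be told apart from one shared by all genes. Depth limits WFS1 most (19 to 76 counts), and 2 libraries per group limit the others.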
